A study of Homo sapiens with 6 samples.

Results

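BCL2 family genes that are not among the usual p53 targets, 10 in all, were followed across 6 RNA-seq libraries of A549, a human lung adenocarcinoma cell line. They were taken as the rows of the deposited tables whose gene name was BCL2, BCL2L1, BCL2A1, MCL1, BAK1, BID, BIK, BAD, BMF or BCL2L11, and all 10 were found among 58735 listed genes. All cells were grown with 10% serum and stably transduced with lentivirus. The WT group received HOXB9, a homeobox transcription factor, the T133A group received HOXB9 with the T133A change (threonine to alanine) and the KO group is a knockout of HOXB9 by its label, made with the same vector series. Each group had 2 libraries. The labels leave out whether HOXB9 of the host cells was intact in WT and T133A, whether a line was 1 clone, and whether replicate libraries were separate cultures. P-values therefore cover only the spread between the libraries at hand, which may be technical, and no library analysed here is labelled as an empty vector.

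BCL2 family proteins decide whether the outer mitochondrial membrane is opened during apoptosis. Pro-survival members (BCL2, BCL-XL from BCL2L1, MCL1 and BFL-1 from BCL2A1) hold the pore-forming effectors BAK and BAX in check. BH3-only proteins (BID, BIM from BCL2L11, BAD, BIK and BMF) bind the pro-survival members, and BID and BIM can also activate the effectors. Gene-level counts do not separate splice forms such as the long and short forms of BCL2L1 or MCL1, which can have opposite activities.

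Total counts ran from 16299059 to 18745432 per library. HOXB9, the targeted gene, stood at 219.7 ± 4.0 CPM (counts after TMM scaling to a common library size; mean ± SD, n = 2) in WT, 242.5 ± 45.5 in T133A and 14.95 ± 0.626 in KO, and was lower in KO than in WT (log2 fold change -3.88, adjusted p = 3.27e-16 by edgeR's quasi-likelihood test with Benjamini-Hochberg adjustment). The epithelial markers KRT8, KRT18, KRT19, EPCAM and CDH1 were all counted and summed to 5970 to 8680 CPM, most of it KRT8 and KRT18. In the alveolar list, the surfactant genes and NKX2-1 had at most 14 counts in any library. The whole alveolar list summed to 1.29 to 3.01 CPM, and 1 of its 6 markers had a mean above 1 CPM. In KO against WT, EPCAM fell by 3.10 on the log2 scale, from 15.7 to 1.83 CPM, and CDH1 by 0.88 (adjusted p = 4.01e-11 and 1.34e-06 by edgeR). Mitochondrial transcripts took 7.84 to 8.91% of counts in WT and T133A and 5.60% and 4.45% in KO. Summed fibroblast markers were 42.7 to 43.1 CPM in WT and T133A and 14.2 to 14.4 CPM in KO. Of 5 tested, COL3A1, LUM and DCN fell in KO, to 0 to 4 counts, while THY1 rose by 2.58 (0.687 to 4.14 CPM, adjusted p = 3.91e-05 by edgeR) and COL1A1 by 0.57 (adjusted p = 0.0255). Summed endothelial markers were at most 2.47 CPM in any library. The part of these shifts in the results below was not tested.

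MCL1 and BCL2L1 dominated the 4 pro-survival members in every library. BCL2L2, a pro-survival gene outside these members, stood at 21.0 to 27.2 CPM per library and is not in the shares and sums below. On the length-normalised scale of the deposited FPKM values, which allows levels of different genes to be compared, MCL1 stood at 61.2 and 61.7 in WT, 65.3 and 71.7 in T133A, and in KO 60.2 and 57.5. BCL2L1 followed at 40.2 and 44.3, 61.9 and 54.7, and 54.9 and 56.1 FPKM. BCL2 itself was near the bottom of the members followed, at 0.381 to 0.504 FPKM over the 6 libraries. MCL1 lay above BCL2L1 in each library, and these were the highest members in all 3 groups.

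The order below them differed by group. In WT, BAD (8.11 and 8.27 FPKM) and BAK1 (7.86 and 8.44) overlapped, BID came next (7.16 and 7.48), then BCL2L11 (2.98 and 2.60). BCL2 and BMF overlapped below 0.51 FPKM, followed by BIK (0.366 and 0.232) and BCL2A1 (0.107 and 0). In T133A, BID came next after BCL2L1 at 13.3 and 13.9 FPKM, and BIK (2.54 and 2.47) and BCL2A1 (2.54 and 2.33) overlapped each other and both lay above BCL2 and BMF, which overlapped too. In KO, BAK1 (13.3 and 14.4 FPKM) came next, close above BAD (13.1 and 12.9), with BID at 10.2 and 11.7, then BCL2L11, BCL2A1 (1.59 and 0.951) and BIK, which overlapped BCL2. BMF was the lowest member in KO, at 0.197 and 0.250 FPKM.

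**Figure D1:**
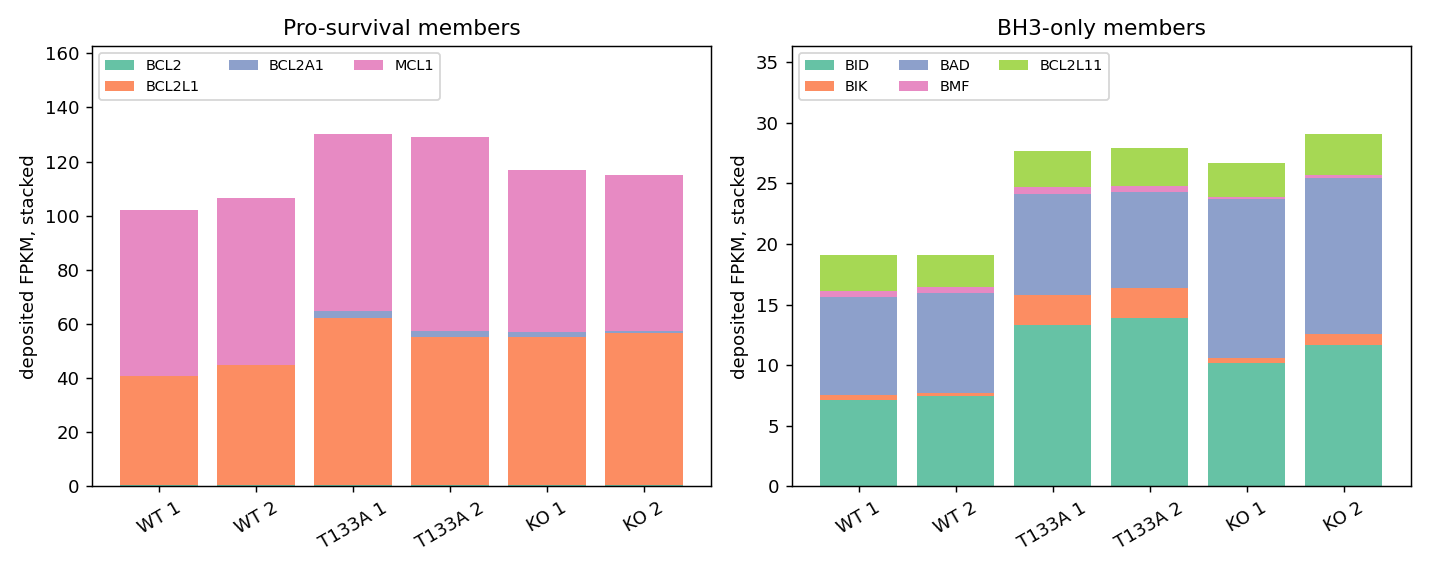
Deposited FPKM of the 4 pro-survival members (left) and the 5 BH3-only members (right), stacked, for each of the 6 libraries on the horizontal axis; the vertical axis is FPKM from 0. MCL1 and BCL2L1 make up nearly the whole of the left bars, where BCL2 is too low to be seen, and the BID segment runs from 7.16 to 13.9 FPKM between WT and T133A.

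Within the summed FPKM of the 4 pro-survival genes, BCL2L1 took 39.4% and 41.6% in WT, 47.6% and 42.4% in T133A, with 46.9% and 48.8% in KO. The MCL1 share was 60.0% and 57.9%, 50.1% and 55.5%, with 51.4% and 49.98% in KO. Both WT libraries thus held a larger MCL1 share than any T133A or KO library. BCL2A1 took at most 0.105% in WT, 1.80 to 1.95% in T133A and 0.826 to 1.36% in KO.

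The pro-survival sum was 102 and 106 FPKM in WT, 130.2 and 129 in T133A, and in KO 117 and 115. The 5 BH3-only genes summed to 19.1 and 19.1, 27.7 and 27.9, and 26.7 and 29.1 FPKM. Set against the pro-survival sum of the same library, the BH3-only sum was 18.7% and 17.9% in WT, 21.3% and 21.6% in T133A, with 22.8% and 25.3% in KO. These 5 BH3-only genes thus stood higher against the pro-survival members in all T133A and KO libraries than in WT. The sums leave out family genes outside the members followed, so they are not the balance of the whole family. Mean levels in WT, T133A and KO were 26.7, 35.3 and 21.3 CPM for the BH3-only gene PMAIP1 and 18.1, 21.5 and 21.8 for BBC3, another. For the pro-survival gene BCL2L2 they were 27.0, 26.1 and 22.8 CPM. The FPKM sums describe transcripts and were not tested.

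T133A and WT differ in the form of HOXB9 delivered. In T133A, 5 of the 10 members rose and none fell: BCL2A1, BCL2L1, BAK1, BID and BIK. By edgeR's quasi-likelihood test, adjusted over all 16340 genes tested, 9.55% of genes were called in that comparison, 5.58% higher and 3.97% lower. All 10 members passed the low-count filter. BCL2A1 and BIK had under 10 counts in both WT libraries and passed it through the other groups, BIK by both T133A libraries and 1 KO library, so they had to differ and add no support. Over the other 8 members, 3 rose, and the median log2 fold change was 0.16, against 0.0035 over all genes tested (0.31 with BCL2A1 and BIK included). Without BCL2A1, BIK and BMF, which fall below a mean of 5 CPM, 3 members rose. Without WT replicate 1, 3 of the 10 rose. The libraries of T133A and WT did not overlap for 8 members, higher in T133A for 7, where 53.6% of all tested genes did not overlap.

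In KO against WT, which asked what differs when HOXB9 is low, 5 members rose (BCL2A1, BCL2L1, BAK1, BID and BAD) and BMF fell. The share of all tested genes called was 23.6% higher and 23.0% lower, 46.6% in all, beside 5 and 1 of the 10 members. The libraries did not overlap for 8 members, higher in KO for 6, against 75.4% of all genes. Without BCL2A1 and BIK, 4 of 8 members rose and 1 fell, and the median log2 fold change was 0.26, against 0.0010 over all genes tested (0.48 with both included). The comparisons with WT share the WT libraries, so each member's values are given side by side. In T133A against KO, 3 members were higher (BID, BIK and BMF) and BAD was lower, where 39.9% of all genes were called, 20.3% higher and 19.6% lower. The libraries did not overlap for 7 members, against 67.0% of all genes. Without BCL2A1 and BIK, 2 of 8 members were higher in T133A than in KO and 1 was lower. The median log2 fold change of these 8 was 0.05, against -0.0097 over all genes tested (0.16 with both included).

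**Figure D2:**
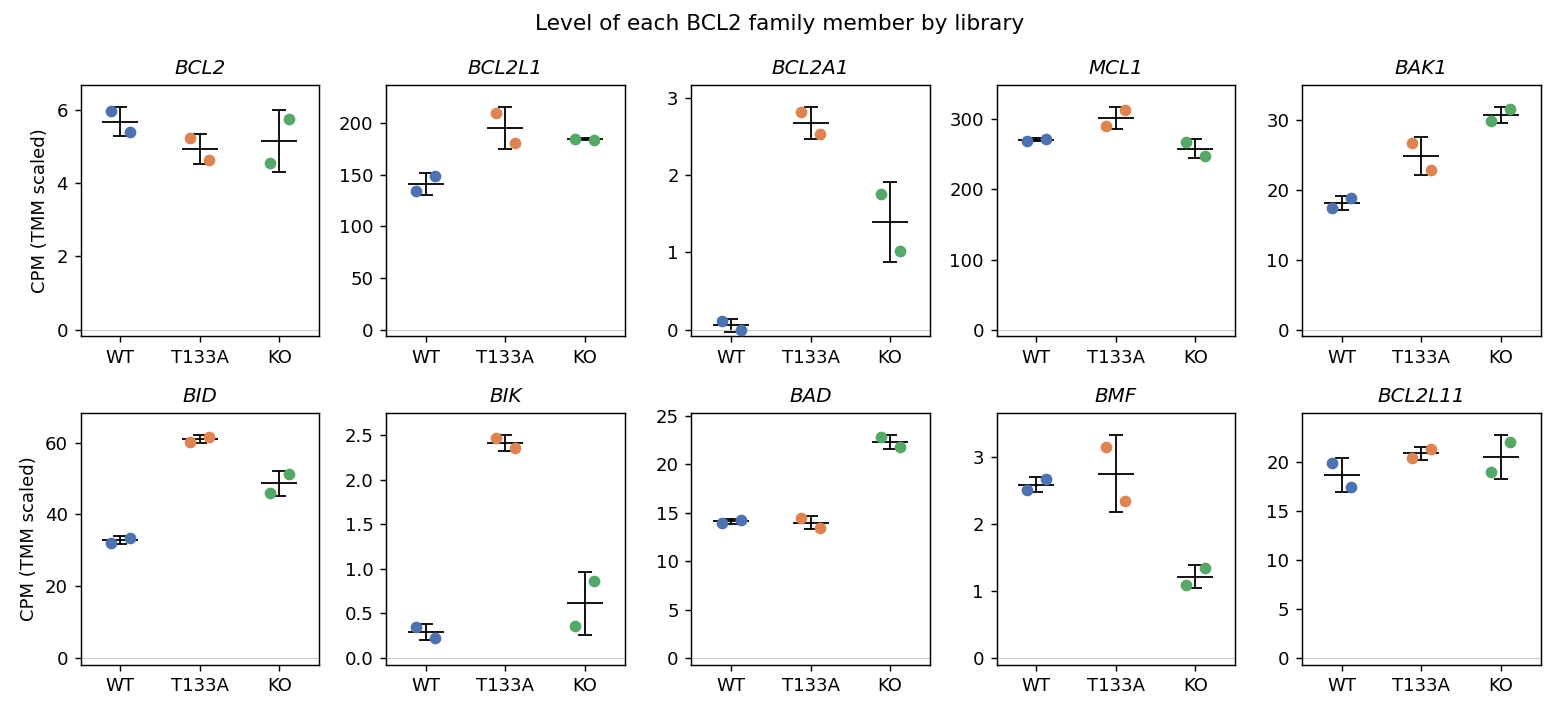
TMM-scaled CPM (vertical axes, from 0) of each of the 10 members in the WT, T133A and KO libraries (horizontal axes). Points are single libraries and bars mean ± SD of 2; BID stands at 32.0 and 33.6 CPM in WT, 60.2 and 61.7 in T133A, with 46.1 and 51.2 in KO, and BAD is high in both KO libraries alone.

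**Figure D3:**
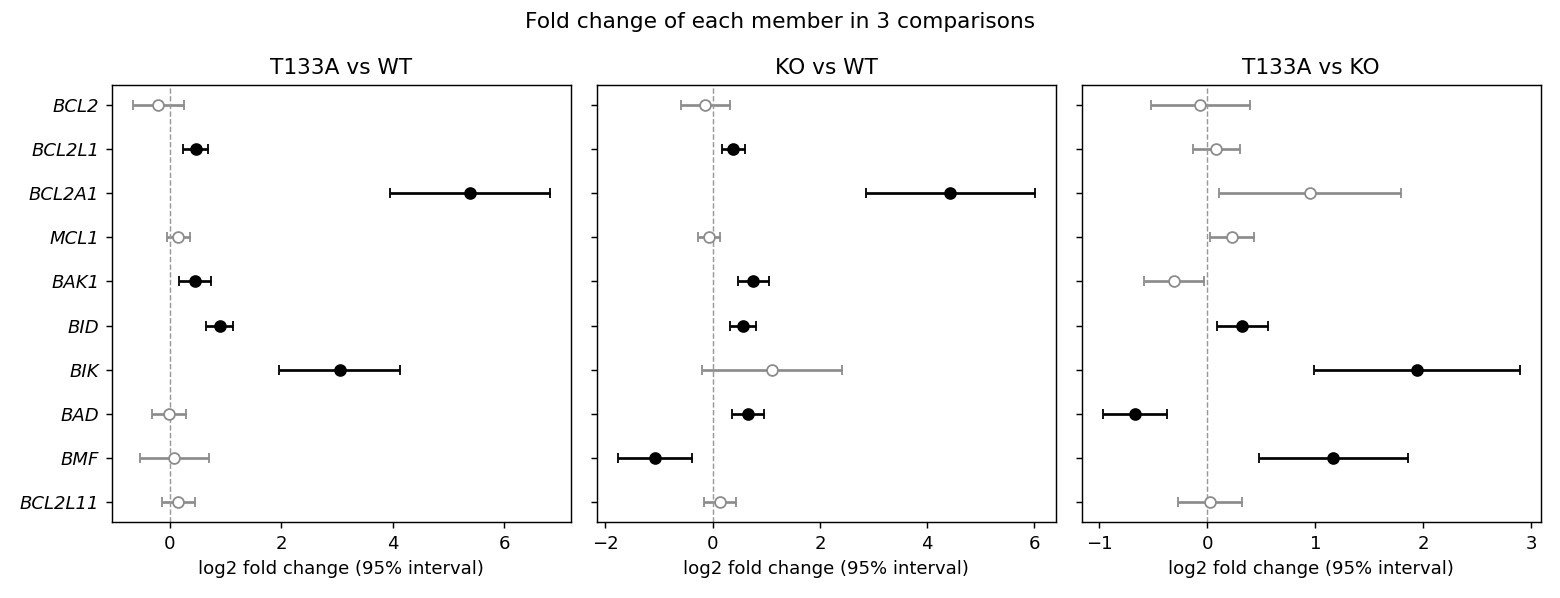
Log2 fold change (horizontal axes, with 95% interval; the 3 axes differ in range) of each member in T133A against WT, KO against WT and T133A against KO. Filled points passed edgeR's test at an adjusted p of 0.05 and open points did not; BCL2A1 lies farthest from 0 in both comparisons with WT, and BMF is filled to the left in KO against WT.

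Among the pro-survival genes, BCL2A1 went from almost no counts to a low level. It encodes BFL-1, a short-lived pro-survival protein best known from leukocytes and as a target of NF-kB. BCL2A1 (ENSG00000140379, chromosome 15, 79960889 to 79971446, reverse strand, GRCh38) was counted 2 and 0 times in WT, 49 and 43 times in T133A, and in KO 29 and 19 times. These are 0.117 and 0 CPM, 2.82 and 2.53 CPM, and 1.76 and 1.02 CPM. The count of 0 allows up to 3 counts, or 0.167 CPM, in that library. All T133A and KO libraries lay above both WT libraries, and both T133A libraries above both KO libraries. BCL2A1 passed the low-count filter through the T133A and KO libraries, so its tests against WT add no support.

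From the counts, BCL2A1 was 46.9 times as high in T133A as in WT (exact 95% counting interval 12.6 to 393) and 24.0 times as high in KO (6.29 to 204). These intervals, and the floor of 3 counts, reflect counting error alone. The fitted log2 fold change was 5.38 in T133A (adjusted p = 8.62e-06 by edgeR) and 4.43 in KO (adjusted p = 5.35e-05). These fitted values depend on the prior count given to WT, and ran from 4.42 without WT replicate 2 to 8.54 without WT replicate 1 in T133A, and from 3.48 to 7.60 in KO. T133A against KO missed the threshold (log2 fold change 0.95, 95% interval 0.11 to 1.79, adjusted p = 0.0677). It passed in 6 of 15 alternatives, among them leaving out WT replicate 1, WT replicate 2 or KO replicate 1 (adjusted p = 0.0453 to 0.0491). In bulk RNA, a higher level in every cell and a larger share of cells with the transcript cannot be told apart.

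Because BCL2A1 is typical of blood cells, the haematopoietic markers stand beside it. MS4A1 had no count in any library, PTPRC and CD3E had at most 1 count, and the list summed to 9.70 to 13.3 CPM in WT, 14.2 to 17.8 in T133A and 11.2 to 16.0 in KO. Most of that sum was CD14 and ITGAM, the 2 markers above 1 CPM. ITGAM, an integrin chain, rose by 1.40 on the log2 scale in T133A (adjusted p = 0.00468 by edgeR) and by 2.0 in KO (adjusted p = 1.10e-05).

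BCL2L1, which encodes BCL-XL, rose in T133A and in KO against WT. BCL2L1 (ENSG00000171552, chromosome 20, 31664452 to 31723989, reverse strand) stood at 133.8 and 148.4 CPM in WT, 209 and 181 in T133A, with 185 and 184 in KO. Every T133A and KO library lay above both WT libraries. The log2 fold change was 0.47 (SE 0.105, adjusted p = 0.00476 by edgeR) in T133A and 0.38 (SE 0.105, adjusted p = 0.00465) in KO. Both calls were lost without WT replicate 1 (adjusted p = 0.205 and 0.13). T133A against KO gave 0.08 (95% interval -0.13 to 0.30, adjusted p = 0.564). The antisense gene ABALON overlaps BCL2L1 and had 43 to 92 counts, against 2289 to 3643 for BCL2L1.

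MCL1 and BCL2 did not pass in any comparison. MCL1 encodes a short-lived pro-survival protein (ENSG00000143384, chromosome 1, 150574551 to 150579738, reverse strand). It stood at 269 and 272 CPM in WT, 291 and 313 in T133A, and in KO 267 and 248. T133A libraries were the highest, but the log2 fold change against WT was 0.16 (95% interval -0.05 to 0.36, adjusted p = 0.365 by edgeR), against KO 0.23 (0.02 to 0.43, adjusted p = 0.0718), and that of KO against WT -0.07 (-0.28 to 0.14, adjusted p = 0.589). The value against KO passed in 3 of 16 alternatives. Among them were a mean of at least 5 CPM (adjusted p = 0.0293 by edgeR) and leaving out T133A replicate 1.

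BCL2, the founding member of the family (ENSG00000171791, chromosome 18, 63123346 to 63320128, reverse strand), was counted 75 to 107 times per library. It stood at 5.96 and 5.41 CPM in WT, 5.23 and 4.645 in T133A, with 4.55 and 5.76 in KO. KO overlapped both other groups, and the log2 fold changes were -0.20 (95% interval -0.66 to 0.25) for T133A and -0.14 (-0.59 to 0.32) for KO against WT (adjusted p = 0.641 and 0.639 by edgeR). Intervals this wide leave changes of up to 0.66 in size possible at this depth.

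The effector gene BAK1 rose in T133A and in KO against WT. BAK1 (ENSG00000030110, chromosome 6, 33572547 to 33580293, reverse strand) stood at 17.5 and 18.9 CPM in WT, 26.8 and 22.9 in T133A, and in KO 29.9 and 31.5, and the 3 groups did not overlap. It rose by 0.76 on the log2 scale in KO (SE 0.137, adjusted p = 9.87e-05 by edgeR) and by 0.45 in T133A (SE 0.138, adjusted p = 0.0397). The T133A call was lost without WT replicate 1, WT replicate 2 or T133A replicate 1 (adjusted p = 0.19 to 0.389), and by DESeq2 (0.09), with scaling by library size (0.0845) and with the replicate number as a block (0.0677). T133A against KO gave -0.31 (95% interval -0.58 to -0.03, adjusted p = 0.0751 by edgeR). This difference passed in 4 of 16 alternatives, among them scaling by library size (adjusted p = 0.0386) and leaving out T133A replicate 1. The BAK1 pseudogene BAK1P1 had 4 to 16 counts per library, against 299 to 586 for BAK1.

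BID showed the clearest difference among the BH3-only genes. Its protein links death receptors to mitochondria after cleavage by caspase-8. BID (ENSG00000015475, chromosome 22, 17734138 to 17774770, reverse strand) stood at 32.0 and 33.6 CPM in WT, 60.2 and 61.7 in T133A, with 46.1 and 51.2 in KO. The 3 groups were separate, with WT lowest and T133A highest. BID was 1.86-fold higher in T133A than in WT (log2 fold change 0.90, SE 0.117, adjusted p = 1.02e-05 by edgeR) and 1.49-fold higher in KO (0.57, SE 0.117, adjusted p = 0.000376). These calls held in all 15 alternative fits of each. The difference between T133A and KO was smaller (0.33, SE 0.114, adjusted p = 0.0268). It was lost in 8 of 16 alternatives, among them leaving out WT replicate 1, WT replicate 2, T133A replicate 2 or KO replicate 1 (adjusted p = 0.0574 to 0.203) and the replicate block (adjusted p = 0.0574).

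BIK was high in T133A. It encodes a BH3-only protein found at the endoplasmic reticulum. BIK (ENSG00000100290, chromosome 22, 43110748 to 43129712, forward strand) was counted 6 and 4 times in WT, 43 and 40 times in T133A, and in KO 6 and 16 times, or 0.351 and 0.223 CPM, 2.47 and 2.35 CPM, and 0.364 and 0.861 CPM. Both T133A libraries lay above all 4 others. BIK passed the low-count filter through both T133A libraries and 1 KO library, so its tests of T133A against WT or KO add no support. The fitted log2 fold change was 3.05 against WT (SE 0.524, adjusted p = 0.000362 by edgeR) and 1.94 against KO (SE 0.459, adjusted p = 0.00171). The value against KO moved between 1.45 without KO replicate 1 and 2.71 without KO replicate 2, and stayed past the threshold (adjusted p = 0.0315 and 0.00301). KO against WT gave 1.11 (95% interval -0.19 to 2.40, adjusted p = 0.155), with 0.33 without KO replicate 2.

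BAD and BMF differed in KO, in opposite directions. BAD encodes a BH3-only protein that binds BCL-XL and is silenced by phosphorylation in response to growth factors. BAD (ENSG00000002330, chromosome 11, 64269830 to 64284704, reverse strand) stood at 13.9 and 14.3 CPM in WT, 14.4 and 13.5 in T133A, with 22.8 and 21.7 in KO. WT and T133A overlapped, and KO lay above both. BAD rose by 0.66 on the log2 scale in KO (SE 0.143, adjusted p = 0.000649 by edgeR) and was lower in T133A than in KO by -0.67 (SE 0.143, adjusted p = 0.000644). Over the alternative fits, which include a GC and length correction, the first value ran from 0.48 to 0.68. The second ran from -0.71 to -0.45. T133A against WT gave -0.02 (95% interval -0.32 to 0.29). GPR137 overlaps BAD on the opposite strand and had 573 to 787 counts, against 229 to 404 for BAD, so the counts of this pair may be shared if strand was not used.

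BMF, whose protein can be held at the cytoskeleton through a dynein light chain, is a low-abundance member (ENSG00000104081, chromosome 15, 40087890 to 40108892, reverse strand). It was counted 43 and 48 times in WT, 55 and 40 times in T133A, with 18 and 25 in KO, or 2.51 and 2.68 CPM, 3.16 and 2.35 CPM, and 1.09 and 1.35 CPM. Both KO libraries lay below the 4 others. BMF was 2.11-fold lower in KO than in WT (log2 fold change -1.08, SE 0.333, adjusted p = 0.0107 by edgeR) and higher in T133A than in KO (1.17, SE 0.331, adjusted p = 0.00715). The first call was lost without WT replicate 2 (adjusted p = 0.0615), without KO replicate 1 (0.0651) and by DESeq2 (0.0746). The second was lost without T133A replicate 1 (0.0671), without KO replicate 1 (0.0532) and by DESeq2 (0.0582). T133A against WT gave 0.09 (95% interval -0.53 to 0.71).

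BCL2L11 did not pass in any comparison. It encodes BIM, a BH3-only protein known for its control by FOXO factors and by ERK signalling (ENSG00000153094, chromosome 2, 111119378 to 111168447, forward strand). It stood at 19.9 and 17.4 CPM in WT, 20.4 and 21.3 in T133A, with 18.9 and 22.1 in KO. WT and KO overlapped, and the log2 fold changes against WT were 0.16 in T133A (95% interval -0.14 to 0.46, adjusted p = 0.555 by edgeR) and 0.14 in KO (-0.16 to 0.43, adjusted p = 0.461). MIR4435-2HG lies across BCL2L11 on the opposite strand and had 163 to 193 counts in WT and T133A and 366 and 398 in KO. If strand was not used, reads of this overlapping gene may alter the BCL2L11 count, in a direction that was not tested.

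The upstream sequences of members that rose in T133A are shown to set their base composition and motif matches side by side. RefSeq promoter windows (GRCh38.p14) were matched for 8 of the 10 members. The 250 bases before the annotated start are shown for BCL2L1 (chr20:31723964-31724213, reverse strand), BAK1 (chr6:33580277-33580526, reverse strand) and BID (chr22:17774043-17774292, reverse strand). For genes with several starts, the window with the fewest exon bases in GENCODE 29 was used. For BCL2A1, 30 bases that begin 82 bases before the start are shown (chr15:79971249-79971278, reverse strand), since its whole window is annotated as exon in GENCODE 29. Capitals mark every match, on either strand, to TATAAA (the TATA box), TTTAT (a core preferred by posterior HOX proteins), TGANTCA (AP-1), GTAAACA (forkhead) or the NF-kB consensus. TTTAT read on the other strand lies inside TATAAA, so those matches overlap, and elsewhere it appears as ATAAA.
BCL2A1: gaggaaggatatTATAAAgtgatgcaaaca
BCL2L1: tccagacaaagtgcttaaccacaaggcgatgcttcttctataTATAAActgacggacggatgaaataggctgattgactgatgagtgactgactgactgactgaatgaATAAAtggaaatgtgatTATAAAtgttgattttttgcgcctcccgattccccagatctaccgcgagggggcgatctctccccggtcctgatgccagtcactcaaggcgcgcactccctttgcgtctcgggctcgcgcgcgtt
BAK1: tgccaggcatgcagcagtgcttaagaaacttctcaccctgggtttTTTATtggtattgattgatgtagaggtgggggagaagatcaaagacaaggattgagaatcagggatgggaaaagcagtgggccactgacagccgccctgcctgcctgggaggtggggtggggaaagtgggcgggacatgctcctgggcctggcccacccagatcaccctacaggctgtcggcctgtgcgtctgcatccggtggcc
BID: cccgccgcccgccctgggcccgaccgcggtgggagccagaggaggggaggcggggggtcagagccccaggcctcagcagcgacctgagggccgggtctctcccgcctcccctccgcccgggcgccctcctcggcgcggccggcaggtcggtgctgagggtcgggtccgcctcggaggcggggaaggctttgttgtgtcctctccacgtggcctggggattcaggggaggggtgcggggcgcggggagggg

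The BCL2A1 window had 38.8% G and C and 2 CG pairs, and the BID window 78.0% and 26 CG pairs, against medians of 58.0% and 11 over the upstream windows of 27305 genes. TATAAA was found in BCL2A1, 70 bases before the start, and in BCL2L1, at 208 and 125 bases before the start, and is held by 11.1% of all windows. Apart from those overlaps, TTTAT was found in BCL2L1 (142 bases before), BAK1 (205), BMF (96) and BCL2 (32), and 33.7% of all windows hold it, overlaps included. The BCL2 window, like that of BCL2A1, is wholly annotated as exon in GENCODE 29. GTAAACA was found in BCL2L11 (223 bases before), and 2.98% of all windows hold it. No window of the 8 members held an AP-1 or NF-kB match (6.60% and 9.57% of all windows do), which says only that these letters are not in these bases. The BID and BAD windows held none of the motifs searched.

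The genes closest in pattern were found by the root mean square difference of log2(CPM + 0.5), centred per gene, over the 6 libraries. For BCL2A1 they included PLEK2 (difference 0.216) and CDCP1, a membrane glycoprotein (0.241), out of 10794 protein-coding genes of at least 5 CPM. BCL2A1 stood at 0.117 and 0 CPM in WT, below the 0.5 CPM added, which compresses its rise. The match is therefore to that compressed pattern and not to the size of the change. BCL2A1 was also picked with these WT values in use, so its matches add no support. PLEK2 stood at 3.14 ± 0.0237 CPM in WT, 15.1 ± 2.60 in T133A and 9.18 ± 1.87 in KO (mean ± SD, n = 2). The genes closest to BID were GRB10, an adaptor of insulin and IGF receptors (0.0542), FHL1 (0.0677) and GNG11 (0.0853). GRB10 stood at 50.1 ± 0.916 CPM in WT, 94.2 ± 2.33 in T133A and 73.2 ± 0.295 in KO.

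The rest of the apoptosis machinery was counted in 7 lists. The counts are to be read beside the shares of all tested genes called, 5.58% higher and 3.97% lower in T133A and 23.6% and 23.0% in KO against WT. In the list of other BCL2 family genes, 1 of 11 tested rose in T133A and none fell (median log2 fold change 0.25), and in KO 4 rose and 2 fell (median -0.03). BAX, the partner effector of BAK and a p53 target, stood at 83.5 ± 7.80 CPM in WT, 94.9 ± 8.40 in T133A and 193.6 ± 1.41 in KO, and rose by 1.21 on the log2 scale in KO (adjusted p = 4.63e-09 by edgeR). BOK, another effector-like member, rose by 1.12 in KO, from 14.2 ± 1.30 to 31.1 ± 1.55 CPM. BCL2L15 rose in T133A by 0.85, from 11.2 ± 0.433 to 20.25 ± 2.54 CPM (mean ± SD, n = 2), and fell in KO by 1.43, to 4.16 ± 0.131 CPM. With a library left out, 1 to 4 of these genes rose in T133A, with 2 without T133A replicate 1, 3 without either KO library and 4 without T133A replicate 2. The GC correction gave 3, and RLE factors or no low-count filter 2. In KO, 1 fell without WT replicate 1 or KO replicate 2, with the replicate block, without the filter and by DESeq2.

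Mitochondrial death effectors and apoptosome genes had 7 of 11 higher and 1 lower in KO (median 0.32) beside 23.6% and 23.0% of all genes, and 0 in either direction in T133A (median 0.12), beside 9.55% of all genes. ENDOG, a mitochondrial nuclease gene, rose in KO by 0.82 on the log2 scale, from 10.7 ± 0.599 to 18.9 ± 0.720 CPM (mean ± SD, n = 2). CYCS, which encodes cytochrome c, rose by 0.38 (adjusted p = 0.00562 by edgeR; 0.0807 without WT replicate 1 and 0.0581 without KO replicate 1), and APAF1, the scaffold of the apoptosome, fell by 0.37 (adjusted p = 0.0139; 0.212 without WT replicate 1 and 0.0796 without KO replicate 2), with a log2 fold change of 0.01 after a correction for GC content and length. The count of 7 was 1 without WT replicate 1, 3 without WT replicate 2 and 4 without KO replicate 2. Among caspases, 1 of 8 rose in T133A (median 0.07) and 3 fell in KO (median -0.19). CASP10 rose in T133A by 0.99 and fell in KO by 0.64 (adjusted p = 9.97e-05 and 0.00313 by edgeR), from 11.5 ± 0.746 CPM in WT to 22.9 ± 0.0882 and 7.35 ± 0.949 (the fall was lost without WT replicate 1, adjusted p = 0.0513). The inflammatory caspase genes CASP1 and CASP4 fell in KO by 0.99 and 0.76 (the CASP1 call was lost without KO replicate 2, adjusted p = 0.0624), and 2 caspase genes fell without WT replicate 1. The GC correction gave 2 higher in T133A and 1 higher in KO.

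IAP genes encode caspase inhibitors. Of 6 tested, 1 rose and 1 fell in T133A (median 0.11), and 2 rose and 2 fell in KO (median -0.18). BIRC3, an NF-kB target like BCL2A1, rose from 43.5 ± 0.207 CPM in WT to 162 ± 33.5 in T133A and 71.5 ± 14.6 in KO (log2 fold change 1.90 and 0.72, adjusted p = 1.42e-09 and 0.000241 by edgeR). BIRC5, the mitotic member survivin, rose in KO by 0.96 (adjusted p = 8.36e-08). BIRC6 fell by 0.34 in T133A (adjusted p = 0.0363; 0.154 to 0.451 without either WT library or T133A replicate 1, 0.0836 with the replicate block and 0.123 with the GC correction) and by 0.43 in KO (adjusted p = 0.00162; 0.0667 without WT replicate 1), with -0.03 in KO after the GC correction. No IAP gene fell in KO without WT replicate 1 and 1 did with the GC correction, and 2 rose in T133A without T133A replicate 2.

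In the death receptor pathway, 3 of 11 rose in T133A (median 0.17), and in KO 6 rose and 1 fell (median 0.26). TNFSF10, which encodes the death ligand TRAIL, stood at 36.8 ± 1.48 CPM in WT, 32.8 ± 1.30 in T133A and 1.41 ± 0.160 in KO, and fell in KO by 4.71 on the log2 scale (adjusted p = 3.21e-15 by edgeR). FADD, the adaptor that recruits caspase-8, rose in KO by 0.96 (adjusted p = 9.96e-06). CFLAR, which encodes the caspase-8 inhibitor FLIP, rose in T133A by 0.58 (adjusted p = 0.00217). With a library left out, the count of genes that rose moved both up and down in each comparison. With the GC correction, 4 rose in T133A and 5 in KO. In KO the count was 7 with only the compared groups and 5 by DESeq2. It was 4 with the replicate block or a mean of at least 5 CPM.

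Genes for post-translational regulators of the members had 0 higher and 1 lower of 16 in T133A (median 0.02), and 3 higher and 2 lower in KO (median -0.04). USP9X, a deubiquitinase that stabilises MCL1, stood at 496 ± 24.3 CPM in WT, 396 ± 36.6 in T133A and 279.7 ± 13.7 in KO (mean ± SD, n = 2). It fell by 0.83 on the log2 scale in KO (adjusted p = 9.22e-07 by edgeR) and by 0.33 in T133A (adjusted p = 0.0482), a call lost without either WT library or T133A replicate 1 (adjusted p = 0.177 to 0.471) with the replicate block (0.0992) and with the GC correction (0.223). DYNLL1, the dynein light chain that binds BIM, rose in KO by 0.53 and UBE2J2, a ubiquitin-conjugating enzyme gene, by 0.61. The 2 lower in KO became 1 without WT replicate 1 or KO replicate 2, and the 3 higher became 2 without WT replicate 1. With the GC correction, 7 were higher and 1 lower in KO, and 1 was higher and 0 lower in T133A.

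The 17 transcription factor genes had 4 higher and 0 lower in T133A (median 0.22), and 5 higher and 5 lower in KO (median -0.06). STAT5A, known as an activator of BCL2L1, rose in T133A by 1.15 on the log2 scale, from 6.82 ± 0.379 to 15.15 ± 0.857 CPM (adjusted p = 8.79e-05 by edgeR). In KO it fell by 0.49 (adjusted p = 0.0444), a call lost without any single WT or KO library (adjusted p = 0.0526 to 0.229), with the replicate block (0.0601), without the low-count filter (0.1), by limma-voom (0.0646) and by DESeq2 (0.147). FOXO4, of the FOXO family, fell in KO by 1.59, from 8.81 ± 1.34 to 2.89 ± 1.09 CPM, and ATF5 rose by 0.81. The 5 lower in KO became 3 without WT replicate 1, WT replicate 2 or KO replicate 1 and by DESeq2, and the 5 higher became 3 without WT replicate 1. The 4 higher in T133A became 7, with 1 lower, without T133A replicate 2.

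**Figure D4:**
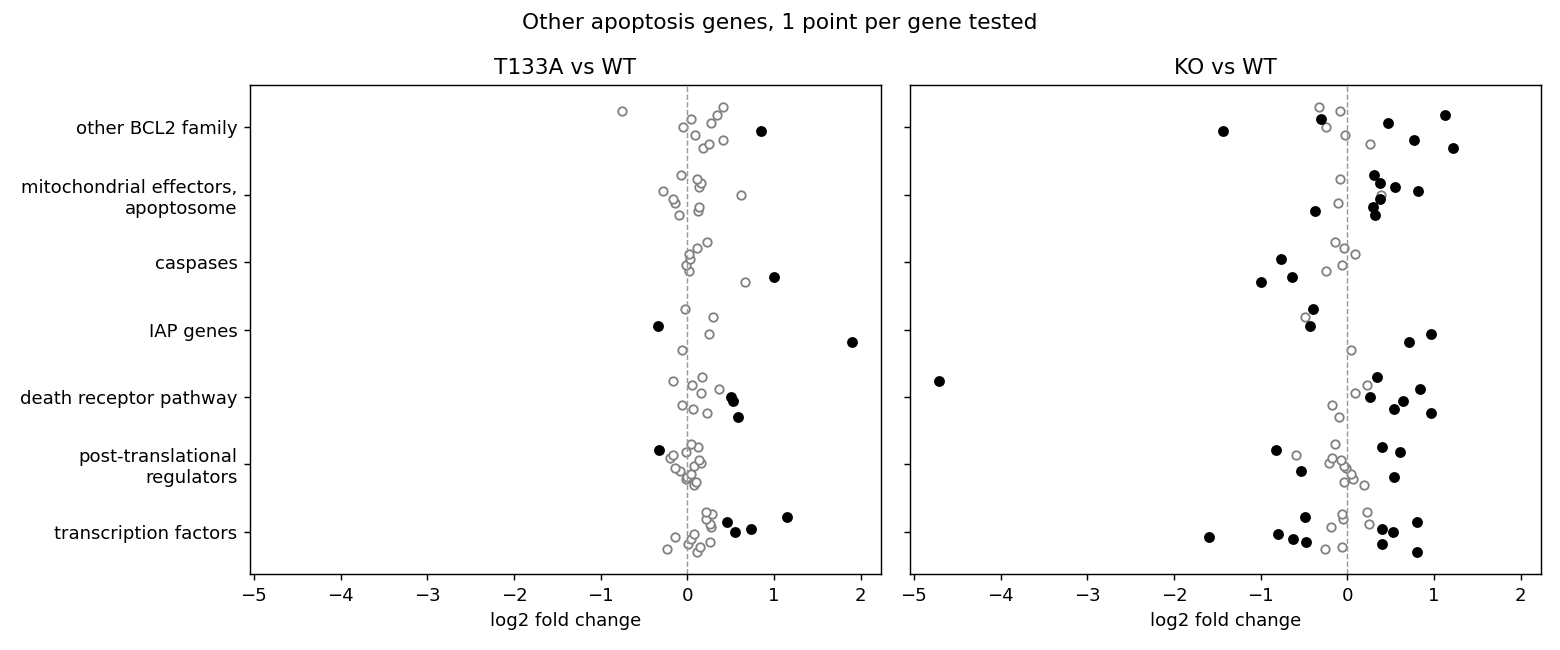
Log2 fold change (horizontal axes) of each tested gene of 7 apoptosis lists (vertical axis, 1 point per gene) in T133A against WT (left) and KO against WT (right). Filled points passed edgeR's test at an adjusted p of 0.05; over all tested genes 9.55% were called in T133A and 46.6% in KO, where TNFSF10 lies at -4.71.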

How the data were processed

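Each library had 1 deposited file, with an unscaled count of reads and an FPKM for every gene. HISAT2 2.0.5, featureCounts 1.5.0 and the build GRCh38 appear in the submitters' processing notes. Strand setting, annotation release and the step behind FPKM: not given in the sources used here. The deposited counts were tested with edgeR 4.0.16 in R 4.3.3 (quasi-likelihood, robust, TMM scaling, filterByExpr), as 1 model of the 6 libraries with a term for group alone. Spread was thus estimated over all groups together, while replicate counts differed more within T133A and KO than within WT. Chi-square per degree of freedom between replicates was 2.42 in WT, 9.68 in T133A and 11.4 in KO. For T133A against KO, a fit of those libraries alone lost the BID call (adjusted p = 0.0536 by edgeR) and gained BCL2A1 (0.0302). Two-sided p-values had Benjamini-Hochberg adjustment over 16340 genes and a threshold of 0.05, and 95% intervals used an SE computed from fold change and F statistic. The deposited FPKM values were scaled by the authors to gene length and library size (0.967 to 1.03 times the total count). They served to compare levels between genes and to form the shares and sums shown for each group, and entered no test. Spreadsheet dates had replaced 27 gene names, which were restored by identifier. The code was also run on simulated data with the same spread in all groups. The libraries here differ in spread, so that run does not give the error rate for them.

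The members and gene lists were chosen with earlier results of these data known, so list counts are descriptions. All 10 members are named, with HOXB9 and, per list, up to 3 called genes of smallest adjusted p. Patterns were matched for the 2 members with the smallest p of a 3-group F test. A gene named by that match and 1 marker are not reported here. Alternatives were DESeq2 1.42.0, limma-voom (limma 3.58.1), RLE factors, library size only, no filter, a mean of at least 5 CPM, only the compared groups, a replicate block and each library left out (the lone library is then assumed to vary like the other groups). A GC and length correction and a crossed block were added after the data were seen. Figures were drawn with Python 3.11.15 and matplotlib 3.10.9.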

Additional observations from a re-analysis of the deposited data

How the results depend on the processing

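Of 450 values of single members under the alternatives, 401 kept their direction and their side of the threshold; the calls lost are given beside each gene. With a library left out, T133A against WT had 3 to 5 members higher, and 456 to 1447 of all genes higher and 307 to 1132 lower (912 and 648 with all libraries); KO against WT had 0 to 1 member lower and 2563 to 4418 of all genes higher (3862 with all); T133A against KO had 1 to 2 members lower. DESeq2 gave 0 members lower in KO against WT and 1 higher in T133A against KO. A mean of at least 5 CPM, which removes BCL2A1, BIK and BMF, gave 3 higher in T133A against WT and 0 lower in KO. Library size only gave 2 lower in T133A against KO, as did the GC correction, with which 1516 of all genes were higher in T133A against WT and 4954 lower in T133A against KO (3201 as reported). The share of calls that were higher in T133A against WT was 58.5% with TMM and 45.0% with library size only.

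The sign changes were in values that did not pass: BCL2L11 in T133A against KO (-0.014 with library size only, -0.0018 without the filter, -0.11 with the GC correction, -0.11 to 0.15 with a library left out), BAD (0.0222) in T133A against WT and BCL2 (0.19) and MCL1 (0.0938) in KO against WT with the GC correction, and, with a library left out, BMF (-0.13 to 0.29) and BAD (-0.0503 to 0.0391) in T133A against WT, BCL2 in KO against WT (-0.33 to 0.0416) and in T133A against KO (-0.25 to 0.12), and BCL2L1 in T133A against KO (-0.0032 to 0.18). The cause was not tested.

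Replicates share only a number between groups. Deviations of same-numbered libraries correlated by -0.0703 (WT and T133A), 0.0405 (WT and KO) and -0.171 (T133A and KO). With the replicate block, 791 and 628 of all genes were higher and lower in T133A against WT, and 4 members were higher, without BAK1 (0.45, adjusted p = 0.0677); BID in T133A against KO (0.33) was the other member call lost (adjusted p = 0.0574). A crossed replicate block fitted to the T133A and KO libraries alone gave 5 members higher and 2 lower, against 3 and 1 for those libraries with no block. That pairing was chosen from the negative correlation above and not from the labels, so the gain in calls adds no support. Depth limits BCL2A1, BIK and BMF, with 0 to 55 counts per library.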
